A study of Mus musculus with 6 samples.

Results

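The 39 clustered Hox genes of the mouse were followed in RNA from embryonic stem cell-derived cells that the labels call sinoatrial node-like cardiomyocytes, the pacemaker cells of the heart. A gene was taken where its symbol was Hoxa, Hoxb, Hoxc or Hoxd followed by digits alone, which gave 39 of the 30631 genes listed in each of 6 libraries. They comprised 11 HoxA genes on chromosome 6, 10 HoxB genes on chromosome 11, 9 HoxC genes on chromosome 15 and 9 HoxD genes on chromosome 2. By paralogue group 8 were anterior (groups 1 to 3), 15 central (groups 4 to 8) and 16 posterior (groups 9 to 13).

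The study compared 3 libraries labelled Shox2-/- with 3 labelled wild type (Shox2+/+), which asks what depends on Shox2, a homeodomain factor of sinoatrial node development. Cells of both groups were grown on mouse embryonic fibroblast feeders, differentiated in hanging drops and sorted for the surface protein CD166, the product of Alcam, at stage 7+1 days. All 3 titles of the Shox2-/- group carry the prefix J2, while the titles of the wild type group carry H1II, H1I and a numeric prefix. The titles do not say what these prefixes mark. If they mark clones, genotype and clone of origin cannot be told apart. Nothing in the labels says that the samples of a group were separate cultures. The p-values thus reflect the spread among these samples alone, part of which may be technical.

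The targeted gene went against the labels. Libraries 1, 2 and 3 labelled Shox2-/- had 200.7, 548 and 373 normalized counts of Shox2, against 89.6, 83.4 and 31.4 in libraries 1, 2 and 3 labelled wild type (log2 change 2.46, SE 0.5, limma's adjusted p = 0.201). Values per library are normalized counts in this order throughout, unless given per kb. The groups did not overlap, and the higher level lay in the libraries labelled Shox2-/-. A value per gene does not show which exons the reads came from, and the structure of the allele is not given in the sources used here. Every direction that follows is one between labels. Alcam was at 4176, 5312 and 4304 in the libraries labelled Shox2-/- and 6591, 6526 and 5841 in those labelled wild type. Recovered depth was 13504683 to 34650564 reads per library, and library 1 of each group was the shallowest. Libraries 1 and 2 labelled wild type stood closest, with 15.3% of genes differing beyond counting error, against 50.6 to 74.6% in the other 14 pairs of libraries. Their titles and that of library 3 labelled Shox2-/- carry the tag Diff9, whose meaning the titles do not give, so the tag crosses the groups. The next closest pair was library 3 labelled Shox2-/- and library 1 labelled wild type, at 50.6%. No listed marker gene of another cell type passed an adjusted p of 0.05 from limma. Of 12 tested mesenchyme and fibroblast markers 8 had negative log2 changes. That list summed to between 190000 and 287000 normalized counts in the libraries labelled Shox2-/-, against 380000 to 603000 in those labelled wild type. Epithelial markers (8 of 8) and endodermal markers (9 of 9) also had negative changes. So did epicardial (6 of 7), leukocyte (7 of 7), pluripotent stem cell (7 of 8) and paraxial mesoderm markers (4 of 4). Neural, neural crest, smooth muscle, endothelial and erythroid markers had changes of both signs. Epithelial sums overlapped, at 4960 to 13900 in the libraries labelled Shox2-/- and 7340 to 11100 in those labelled wild type. Endodermal sums were 2230 to 8780 in the libraries labelled Shox2-/- and 9390 to 11400 in those labelled wild type. Epicardial sums were 2440 to 4530 in the libraries labelled Shox2-/- and 4920 to 5790 in those labelled wild type. Cardiomyocyte markers summed to 14400, 26300 and 37000 in libraries 1, 2 and 3 labelled Shox2-/- and to 30000, 28400 and 11200 in those labelled wild type. Sinoatrial node markers, Shox2 among them, summed to 4180 to 5570 in the libraries labelled Shox2-/- and to 4650 to 8740 in those labelled wild type. Of the 10 tested, 4 had positive and 6 negative log2 changes. The sum of 8740 was that of library 3 labelled wild type, where Smoc2 alone gave 5712. No listed marker of these cell types was at 0 in every library. The part of cell composition in the Hox values was not tested, and in such bulk samples fewer cells of a type and less RNA per cell cannot be told apart.

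Hox genes encode homeodomain transcription factors that give cells of the body axis their position. Within a cluster the genes lie in the order in which they are used: anterior genes at the 3′ end are switched on early and up to the hindbrain, posterior genes at the 5′ end late and in the tail, limbs and urogenital tract. In the embryonic heart, retinoic acid-responsive anterior genes such as Hoxb1 mark progenitors of the second heart field, while Polycomb complexes hold the clusters silent in embryonic stem cells.

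Posterior genes held the largest part of the Hox RNA in both groups, and HoxA and HoxD the largest parts among clusters. Levels between genes are given as normalized counts per kb of merged exon length, a scale on which the median of 16996 tested genes was 113. Hoxa13, a limb and urogenital gene, was at 386 ± 133.0 per kb in the libraries labelled Shox2-/- and 399 ± 12.8 in those labelled wild type (SD, n = 3 per group here and below). Hoxd8, a trunk gene, was at 446 ± 22.3 per kb in the libraries labelled Shox2-/- and 288 ± 61.1 in those labelled wild type. Hoxa10, known for patterning the lumbar spine and uterus, was at 280 ± 95.8 per kb in the libraries labelled Shox2-/- and 249 ± 13.2 in those labelled wild type, and Hoxa11, required in the forearm and kidney, was at 263 ± 85.7 per kb in the libraries labelled Shox2-/- and 240 ± 10.9 in those labelled wild type. These were the 4 highest members in both groups. Hoxd8 ranked first in the libraries labelled Shox2-/- and Hoxa13 in those labelled wild type, but in the libraries labelled Shox2-/- the difference between these neighbours lay within the spread of Hoxa13. Hoxa10 and Hoxa11 differed by less than their spread in both groups, and so did Hoxd8 from both of them in the libraries labelled wild type. Averaged over the 6 libraries, Hoxa13 stood at the 79.9th percentile of tested genes by level per kb, Hoxd8 at the 78.5th, Hoxa10 at the 71st and Hoxa11 at the 69.7th.

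**Figure D1:**
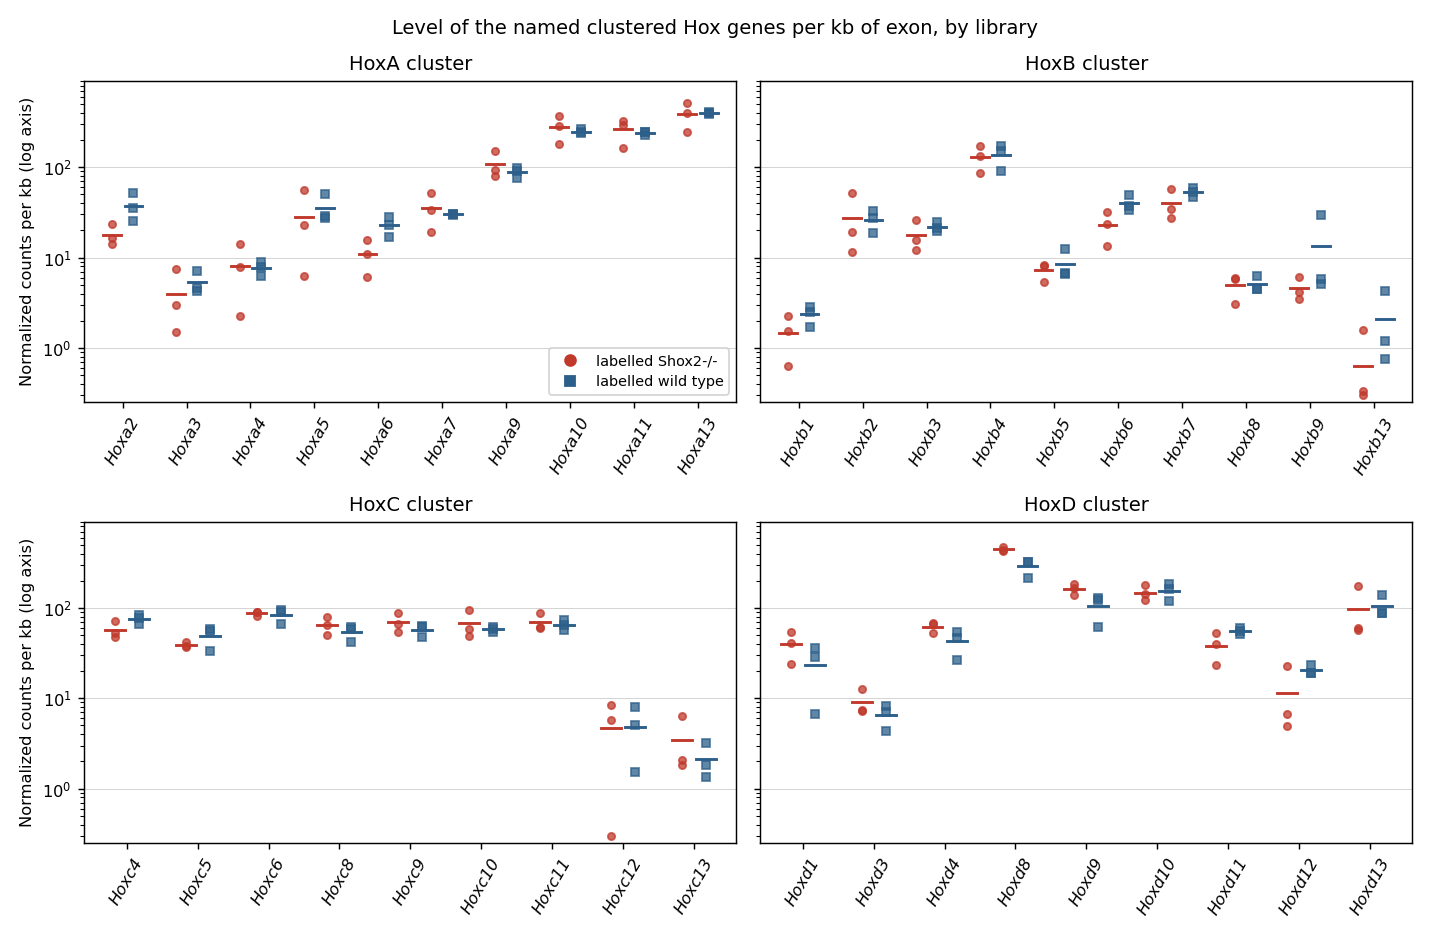
Level of the named Hox genes in normalized counts per kb of exon (log axis), in 1 panel per cluster with genes from anterior on the left to posterior on the right. Points are libraries (labelled Shox2-/- left in red, labelled wild type right in blue), lines are group means, and values of 0 are drawn at the lower edge; in HoxA the levels climb toward Hoxa13, in HoxD they peak at Hoxd8, and in HoxC they are flat between Hoxc4 and Hoxc11.

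The order of levels differed between clusters. In HoxA the genes from Hoxa3 to Hoxa7 were low. The 4 posterior genes held 84.5 ± 1.27% of the summed level per kb in the libraries labelled Shox2-/- and 83.2 ± 1.21% in those labelled wild type. HoxB had the opposite layout, with 1 abundant central gene, Hoxb4, at 130 ± 43.2 per kb in the libraries labelled Shox2-/- and 138 ± 41.3 in those labelled wild type, and Hoxb13 at the bottom of all 39, at 0.635 ± 0.826 per kb in the libraries labelled Shox2-/- and 2.07 ± 1.92 in those labelled wild type. HoxB posterior genes held 3.43, 1.27 and 1.7% of their cluster in the libraries labelled Shox2-/- and 2.05, 1.94 and 11.6% in those labelled wild type, where library 3 stood apart. HoxC was the flattest cluster. Group means of Hoxc4 to Hoxc11 ran from 38.7 to 86.8 per kb in the libraries labelled Shox2-/- and from 49 to 84.1 in those labelled wild type. Per kb of each gene's longest transcript the range was wider, from 40.9 to 132 in the libraries labelled Shox2-/- and from 51.8 to 128 in those labelled wild type. Hoxc12 and Hoxc13 were under 5 per kb in both groups. HoxD peaked at Hoxd8 and held a second, lower shoulder at Hoxd9 and Hoxd10.

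Summed over all members, the clustered Hox genes gave 3570, 2430 and 2880 normalized counts per kb in libraries 1, 2 and 3 labelled Shox2-/- and 2840, 2880 and 2490 in those labelled wild type. The largest and the smallest sum were both in libraries labelled Shox2-/-, so that the groups overlapped. Posterior genes made up 63.3, 48.9 and 58.8% of this sum in the libraries labelled Shox2-/- and 58.1, 57.5 and 62.6% in those labelled wild type. Anterior genes made up 7.04 ± 1.98% in the libraries labelled Shox2-/- and 6.6 ± 0.159% in those labelled wild type. HoxA held 40.7 ± 6.64%, HoxB 9.15 ± 3.84%, HoxC 15.8 ± 1.34% and HoxD 34.3 ± 1.78% in the libraries labelled Shox2-/-. In the libraries labelled wild type HoxA held 43.1 ± 3.63%, HoxB 11.4 ± 0.207%, HoxC 16.4 ± 1.09% and HoxD 29.2 ± 2.81%. The HoxD share did not overlap between groups, at 34.1, 36.2 and 32.7% in the libraries labelled Shox2-/- against 31.5, 30 and 26% in those labelled wild type; it is given as a description, without a test.

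**Figure D2:**
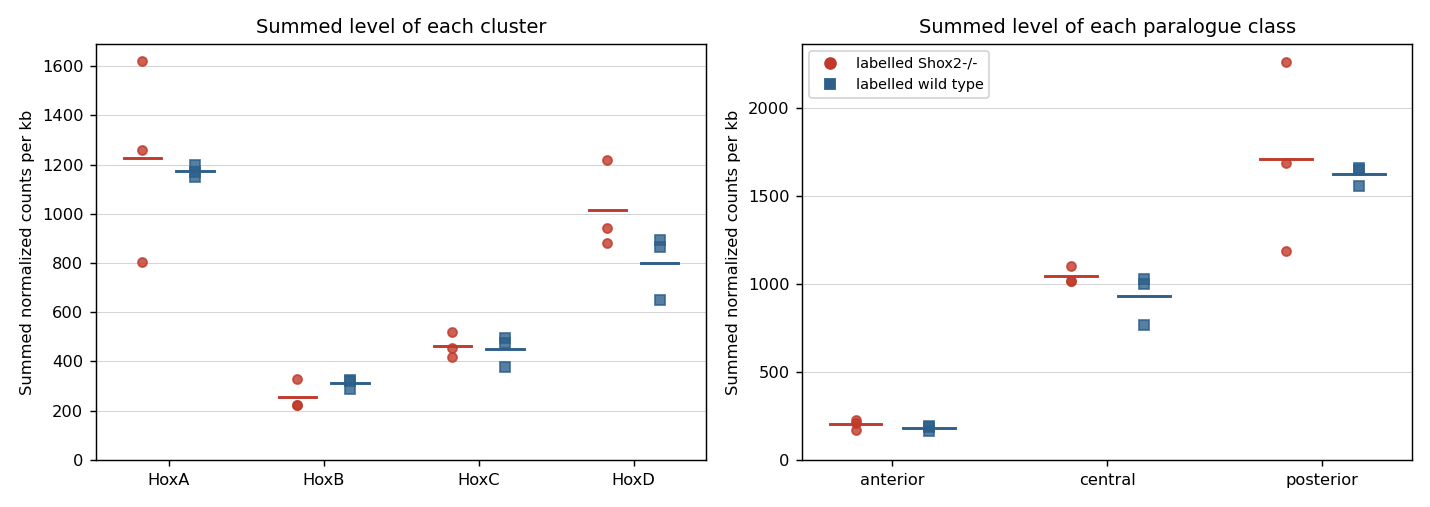
Summed normalized counts per kb of each cluster (left panel) and of each paralogue class (right panel). Points are libraries (labelled Shox2-/- in red on the left of each pair, labelled wild type in blue), lines are group means; the HoxA and posterior sums spread widest among the libraries labelled Shox2-/-, from 804 to 1620 and from 1190 to 2260.

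Differences between the groups were tested with limma on log2(value + 1), with p-values adjusted by the Benjamini-Hochberg method over all 17034 tested genes. No Hox gene passed an adjusted p of 0.05, and neither did any other gene, so that the share called was 0% for the table as a whole. The lowest adjusted p was 0.238 among the Hox genes (Hoxd8) and 0.0954 in the whole table. Of the 39 members 35 entered the test, while Hoxb1, Hoxb13, Hoxc12 and Hoxc13 were too low. At an unadjusted p under 0.05 there were 5 Hox genes, 2 higher and 3 lower in the libraries labelled Shox2-/-, against 14.2% of all tested genes (6.92% higher and 7.23% lower). The 3 libraries of each label did not overlap for 6 Hox genes. Of these, 3 were higher in every library labelled Shox2-/-, Hoxd8 and Hoxd9 among them, against 12.8% of all tested genes. The other 3, Hoxa2, Hoxa6 and Hoxb6, were lower, against 10.8%. These counts are near the shares in the whole table and are no result about the Hox genes. The median log2 change was -0.091 over the Hox genes and 0.013 over all tested genes, and the median size of the change was 0.30 and 0.21.

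**Figure D3:**
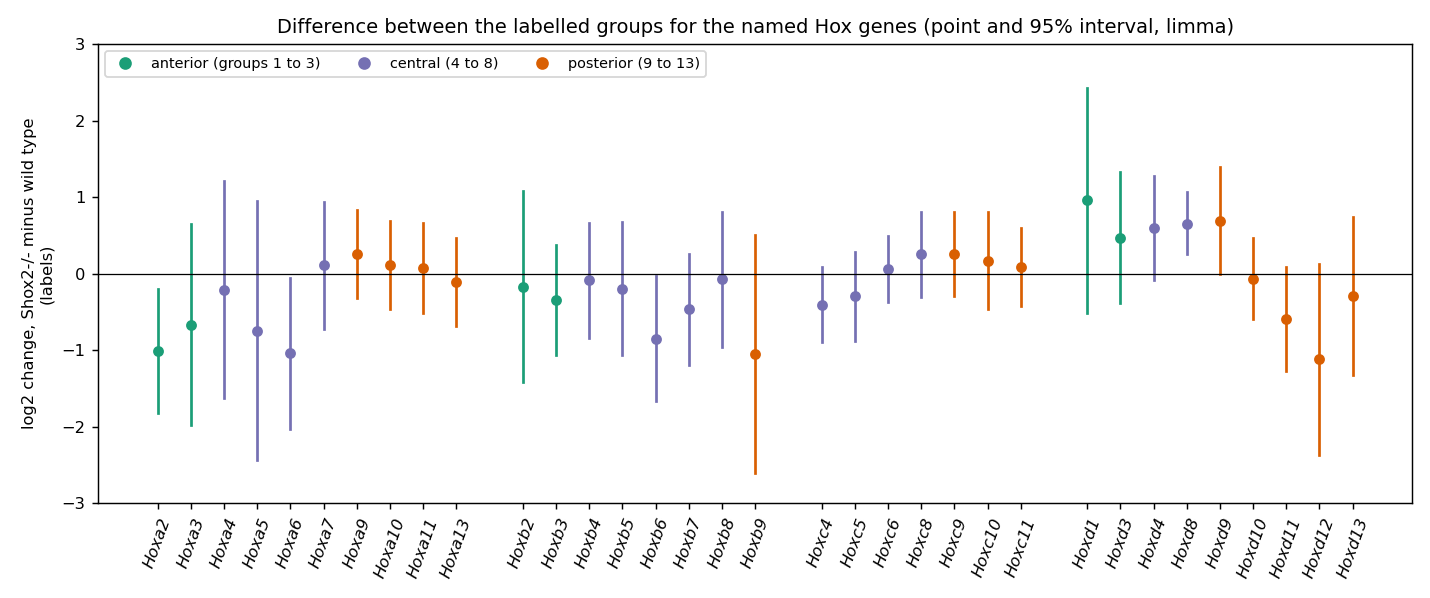
log2 change (labelled Shox2-/- minus labelled wild type) of the named and tested Hox genes with 95% intervals from limma, ordered by cluster and then from anterior to posterior, coloured by class. The 4 HoxA posterior genes lie between -0.11 and 0.25, the HoxD genes run from positive values (Hoxd1 to Hoxd9) to negative ones (Hoxd10 to Hoxd13), and no gene passed an adjusted p of 0.05.

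HoxD had the widest range of log2 changes of the 4 clusters, and their sign followed position. Its 5 genes at the anterior side, Hoxd1, Hoxd3, Hoxd4, Hoxd8 and Hoxd9, had log2 changes of 0.47 to 0.96, and its 4 genes at the posterior side, Hoxd10 to Hoxd13, had changes of -1.12 to -0.068, of which the sign of Hoxd10 turned in some alternative fits. Hoxd8 (chr2:74704615-74707933, plus strand, mm10), which shares no annotated exon base with another gene, had 1294, 1186 and 1190.3 in the libraries labelled Shox2-/- and 878, 894 and 596 in those labelled wild type. Each library labelled Shox2-/- was above each labelled wild type, and library 3 labelled wild type was lowest (log2 change 0.65, SE 0.17, limma's adjusted p = 0.238). Hoxd9, the posterior neighbour of Hoxd8 and active in limb and trunk, had 391, 295 and 353 in the libraries labelled Shox2-/- and 277, 265 and 132 in those labelled wild type. Its groups did not overlap either, and without library 3 labelled wild type the log2 change was 0.34 rather than 0.69 (log2 change 0.69, SE 0.3, limma's adjusted p = 0.356). Without that library the changes of Hoxd8, Hoxd4, Hoxd1 and Hoxd3 were 0.46, 0.28, 0.24 and 0.20. Hoxd4, a hindbrain and cervical gene, had 199, 156 and 193 in the libraries labelled Shox2-/- and 138, 161 and 78.5 in those labelled wild type. Overlap came through library 2 of each label (log2 change 0.59, SE 0.29, limma's adjusted p = 0.399). Of its exon bases 52.3% are shared with Hoxd3 or other transcripts.

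The anterior members of HoxD had the same sign with wider spread. Hoxd1, the most anterior member, had 102, 75.97 and 44.4 in the libraries labelled Shox2-/- and 66.4, 52.8 and 12.6 in those labelled wild type. Library 3 labelled wild type was the low one and the groups overlapped (log2 change 0.96, SE 0.63, limma's adjusted p = 0.505). Hoxd3, which acts in the upper neck, had 53.6, 30.4 and 31.1 in the libraries labelled Shox2-/- and 29.9, 34.5 and 18.1 in those labelled wild type. It was again lowest in library 3 labelled wild type (log2 change 0.47, SE 0.37, limma's adjusted p = 0.58). Other genes, Hoxd4 among them, share 62.8% of its exon bases. On the posterior side, Hoxd10 had 327, 219.9 and 257 in the libraries labelled Shox2-/- and 339, 293 and 215 in those labelled wild type. These values overlapped (log2 change -0.068, SE 0.23, limma's adjusted p = 0.907). Hoxd11, which with Hoxa11 builds the forearm, had 219.7, 99.2 and 166 in the libraries labelled Shox2-/- and 252, 216 and 232 in those labelled wild type. Only library 1 labelled Shox2-/- reached the wild type range (log2 change -0.60, SE 0.29, limma's adjusted p = 0.393). Hoxd12, a digit gene, had 57.1, 12.5 and 17.04 in the libraries labelled Shox2-/- and 48.1, 58.7 and 48.7 in those labelled wild type. Libraries 2 and 3 labelled Shox2-/- were low and library 1 was not (log2 change -1.12, SE 0.53, limma's adjusted p = 0.387). Without library 1 labelled Shox2-/- its log2 change was -1.75, with an adjusted p of 0.334 from limma. Hoxd13, the digit gene at the end of the cluster, had 429, 148 and 141 in the libraries labelled Shox2-/- and 217, 220.3 and 345 in those labelled wild type. The highest and the lowest value were both in libraries labelled Shox2-/- (log2 change -0.29, SE 0.44, limma's adjusted p = 0.79). The posterior genes accordingly held 50.2, 39.5 and 43.6% of the HoxD sum per kb in the libraries labelled Shox2-/- and 54.1, 51.8 and 60.7% in those labelled wild type, ranges that did not overlap and were not tested. Hoxd3os1, an antisense transcript that spans Hoxd8 and the start of Hoxd4, had 194, 153 and 227 in the libraries labelled Shox2-/- and 159, 199 and 98.9 in those labelled wild type (log2 change 0.36, SE 0.29, limma's adjusted p = 0.585). Haglr, a noncoding transcript next to Hoxd1, had 102, 75.97 and 61.5 in the libraries labelled Shox2-/- and 61.4, 89.9 and 38.5 in those labelled wild type (log2 change 0.38, SE 0.36, limma's adjusted p = 0.648). Both were lowest in library 3 labelled wild type, as were the 5 Hox genes beside them.

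**Figure D4:**
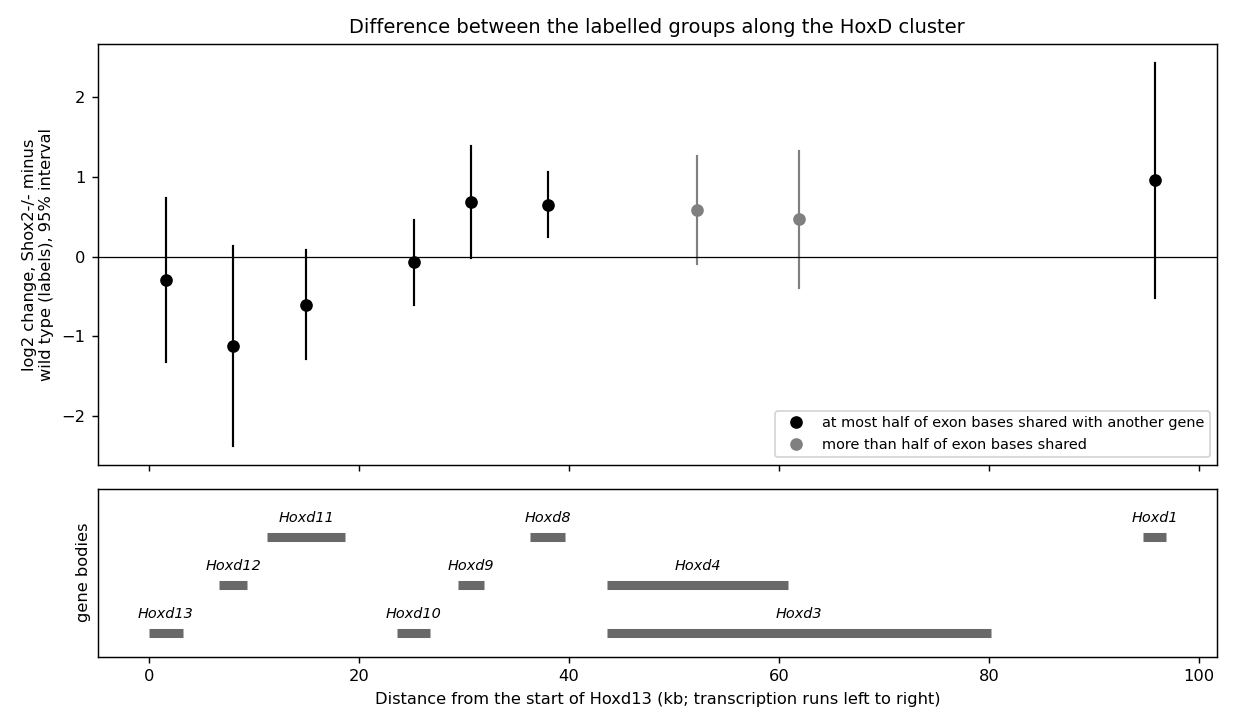
log2 change (labelled Shox2-/- minus labelled wild type) of the 9 HoxD genes with 95% intervals, plotted at the middle of each gene by its distance from the start of Hoxd13 in kb (upper panel), and the gene bodies to scale (lower panel). Values are negative from Hoxd13 to Hoxd10 (the last with a sign that turned in some alternative fits) and positive from Hoxd9 to Hoxd1; grey points are Hoxd3 and Hoxd4, more than 50% of whose exon bases are shared with another gene.

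Promoter windows of 3 HoxD genes with positive log2 changes, Hoxd8, Hoxd9 and Hoxd4, and of Hoxd12, which had the lowest, are shown to set the sides of the cluster beside each other. Each runs from 250 bases before to 50 after an annotated start on the plus strand of RefSeq GRCm38.p6, at chr2:74704365-74704664, chr2:74697513-74697812, chr2:74721728-74722027 and chr2:74674763-74675062 in the order printed. Capitals mark matches on either strand to 4 motifs. TGATNNAT is bound by pairs of PBX and HOX proteins. The letters TTTATGG are those of caudal factors. Nuclear receptors, those for retinoic acid among them, bind AGGTCA. The last motif, TATAAA, is the TATA box.
Hoxd8: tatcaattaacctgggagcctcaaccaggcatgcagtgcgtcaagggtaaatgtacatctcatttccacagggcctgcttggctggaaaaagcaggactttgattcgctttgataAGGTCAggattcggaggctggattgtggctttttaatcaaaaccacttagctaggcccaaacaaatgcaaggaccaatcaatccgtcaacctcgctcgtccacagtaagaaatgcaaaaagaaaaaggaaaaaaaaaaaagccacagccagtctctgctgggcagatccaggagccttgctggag
Hoxd9: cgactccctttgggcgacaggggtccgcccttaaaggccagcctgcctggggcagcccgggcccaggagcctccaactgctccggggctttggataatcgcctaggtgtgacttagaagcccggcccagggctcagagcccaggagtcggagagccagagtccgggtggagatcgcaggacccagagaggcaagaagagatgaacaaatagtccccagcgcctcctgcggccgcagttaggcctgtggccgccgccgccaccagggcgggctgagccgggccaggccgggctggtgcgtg
Hoxd4: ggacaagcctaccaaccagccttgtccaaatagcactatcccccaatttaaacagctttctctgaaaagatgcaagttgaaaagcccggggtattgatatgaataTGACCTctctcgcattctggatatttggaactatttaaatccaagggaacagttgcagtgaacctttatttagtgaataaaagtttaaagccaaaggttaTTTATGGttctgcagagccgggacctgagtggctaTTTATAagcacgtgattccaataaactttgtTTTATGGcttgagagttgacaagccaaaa
Hoxd12: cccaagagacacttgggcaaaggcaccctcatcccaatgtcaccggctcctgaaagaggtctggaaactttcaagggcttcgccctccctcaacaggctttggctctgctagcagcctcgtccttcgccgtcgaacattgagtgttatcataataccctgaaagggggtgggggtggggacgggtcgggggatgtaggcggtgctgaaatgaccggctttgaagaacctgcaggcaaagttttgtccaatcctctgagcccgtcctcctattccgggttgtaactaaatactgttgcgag

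The Hoxd4 window held 2 caudal matches, 1 nuclear receptor match and 1 TATA match. The Hoxd8 window held 1 nuclear receptor match, and those of Hoxd9 and Hoxd12 held none of the 4 motifs. The caudal and TATA motifs share letters, but no matches overlapped in these 4 windows. RefSeq windows matched 22 of the 39 Hox genes, 24 windows in all. The PBX-HOX motif occurred in 4 of these 24 (16.7%), against 8.85% of 32851 windows of the same length. The caudal motif occurred in 1 Hox window (4.17%, against 2.75% of all). For the nuclear receptor motif it was 7 (29.2%, against 16.3%), and for the TATA box 4 (16.7%, against 13.6%). The counts in Hox windows are small, and the differences were not tested. The median number of CpG dinucleotides was 14.5 per Hox window and 7 per window over all genes; the Hoxd9 window had 20 and the Hoxd4 window 4.

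In HoxA the most negative log2 changes, -1.04 and -1.01, were those of Hoxa6 and Hoxa2, while the abundant posterior genes lay between -0.11 and 0.25. Hoxa2, which patterns the second pharyngeal arch, had 41.5, 25.03 and 28.9 in the libraries labelled Shox2-/- and 44.8, 62.6 and 91.8 in those labelled wild type. Every library labelled Shox2-/- was below each labelled wild type (log2 change -1.01, SE 0.35, limma's adjusted p = 0.293). Hoxa3, needed for thymus and parathyroid, had 44.98, 8.94 and 17.8 in the libraries labelled Shox2-/- and 43.1, 28.03 and 25.9 in those labelled wild type. These ranges overlapped (log2 change -0.67, SE 0.56, limma's adjusted p = 0.607). Hoxa4 had 22.5, 3.58 and 12.6 in the libraries labelled Shox2-/- and 9.96, 14.3 and 12.6 in those labelled wild type. It rested on as few as 4 reads in 1 library (log2 change -0.21, SE 0.61, limma's adjusted p = 0.893). Hoxa5, a lung and cervical gene, had 106, 11.6 and 42.96 in the libraries labelled Shox2-/- and 51.5, 54.1 and 95.8 in those labelled wild type. Library 2 labelled Shox2-/- was the low one and library 1 the high one (log2 change -0.75, SE 0.72, limma's adjusted p = 0.662). Hoxa6 had 13.8, 5.36 and 9.63 in the libraries labelled Shox2-/- and 24.9, 20.2 and 14.9 in those labelled wild type. All 3 values labelled Shox2-/- were below those labelled wild type (log2 change -1.04, SE 0.42, limma's adjusted p = 0.339). Hoxa7, a thoracic gene, had 151, 55.4 and 97.03 in the libraries labelled Shox2-/- and 87.97, 86.7 and 84.8 in those labelled wild type. The libraries labelled wild type were nearly equal and fell inside the range of the others (log2 change 0.11, SE 0.35, limma's adjusted p = 0.905).

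The 4 posterior HoxA genes shared 1 pattern across libraries: library 1 labelled Shox2-/- was highest in each, and library 2 of that label was lowest in 3 of them. Hoxa9, best known from blood progenitors, had 849, 448 and 521 in the libraries labelled Shox2-/- and 506, 550.1 and 422 in those labelled wild type (log2 change 0.25, SE 0.25, limma's adjusted p = 0.666). Hoxa10 had 1213, 588 and 944 in the libraries labelled Shox2-/- and 802, 776 and 860.5 in those labelled wild type (log2 change 0.11, SE 0.25, limma's adjusted p = 0.865). The groups overlapped for both genes. Hoxa11 had 746, 378 and 679 in the libraries labelled Shox2-/- and 559, 567 and 521 in those labelled wild type (log2 change 0.071, SE 0.25, limma's adjusted p = 0.912). Hoxa13 had 1261, 608 and 997 in the libraries labelled Shox2-/- and 958, 1021 and 982 in those labelled wild type (log2 change -0.11, SE 0.25, limma's adjusted p = 0.866). In Hoxa10, Hoxa11 and Hoxa13 every library labelled wild type fell between libraries 1 and 2 labelled Shox2-/-. Hoxa11os, the antisense transcript with which Hoxa11 shares 35% of its exon bases, had 343, 144 and 275 in the libraries labelled Shox2-/- and 249, 271 and 239 in those labelled wild type (log2 change -0.083, SE 0.31, limma's adjusted p = 0.918), in the same order as Hoxa11 among the libraries labelled Shox2-/-. The signs of Hoxa9, Hoxa10 and Hoxa11 turned negative without library 1 labelled Shox2-/-, and that of Hoxa13 turned positive without library 2.

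All 8 tested HoxB genes had negative log2 changes, from -1.05 to -0.074, and none passed the test. The sign turned for Hoxb2, Hoxb4, Hoxb5 and Hoxb8 when some single libraries were left out, and for Hoxb4 under other settings too. Hoxb6, a trunk gene, had 62.3, 46.5 and 26.7 in the libraries labelled Shox2-/- and 73.03, 66.5 and 95.8 in those labelled wild type. It was lower in every library labelled Shox2-/- (log2 change -0.85, SE 0.35, limma's adjusted p = 0.342). Hoxb7 had 88.2, 53.6 and 42.2 in the libraries labelled Shox2-/- and 82.99, 72.3 and 90.3 in those labelled wild type. Library 1 labelled Shox2-/- fell inside the wild type range (log2 change -0.47, SE 0.31, limma's adjusted p = 0.501). Hoxb9, a thoracic gene, had 15.6, 10.7 and 8.89 in the libraries labelled Shox2-/- and 14.9, 13.04 and 75.4 in those labelled wild type. Library 3 labelled wild type stood high, and the other 5 libraries lay between 8.89 and 15.6 (log2 change -1.05, SE 0.66, limma's adjusted p = 0.49). Hoxb4, known for its action in blood stem cells, had 219.7, 441 and 344 in the libraries labelled Shox2-/- and 393, 436 and 235 in those labelled wild type (log2 change -0.091, SE 0.32, limma's adjusted p = 0.912). Hoxb2, a direct target of the hindbrain factor Egr2, had 39.8, 181 and 66.7 in the libraries labelled Shox2-/- and 113, 94.5 and 64.4 in those labelled wild type. Its highest value and its lowest were both in libraries labelled Shox2-/- (log2 change -0.17, SE 0.53, limma's adjusted p = 0.905). Hoxb3 had 51.9, 109.9 and 66.7 in the libraries labelled Shox2-/- and 89.6, 82.8 and 106 in those labelled wild type. Among the libraries labelled Shox2-/- their order was that of Hoxb2 (log2 change -0.34, SE 0.31, limma's adjusted p = 0.63). Hoxb5 had 22.5, 23.2 and 14.8 in the libraries labelled Shox2-/- and 18.3, 34.5 and 18.8 in those labelled wild type (log2 change -0.20, SE 0.37, limma's adjusted p = 0.836). Hoxb8 had 15.6, 15.2 and 8.15 in the libraries labelled Shox2-/- and 16.6, 11.7 and 11.8 in those labelled wild type (log2 change -0.074, SE 0.38, limma's adjusted p = 0.94). The groups overlapped in both of these low genes. Hoxb1, a hindbrain gene, had 5.19, 3.58 and 1.48 in the libraries labelled Shox2-/- and 6.64, 5.87 and 3.93 in those labelled wild type. Hoxb13, a prostate and tail gene, had 3.46, 0 and 0.74 in the libraries labelled Shox2-/- and 1.66, 2.61 and 9.42 in those labelled wild type. Both were too low to test.

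HoxC had the narrowest range of log2 changes, -0.41 to 0.26 over 7 tested genes. Hoxc4 had 137, 122 and 184 in the libraries labelled Shox2-/- and 214, 199 and 169.6 in those labelled wild type. Only library 3 of each label crossed the other group's range (log2 change -0.41, SE 0.21, limma's adjusted p = 0.416). Hoxc5 had 116, 114 and 129 in the libraries labelled Shox2-/- and 171, 179 and 104 in those labelled wild type (log2 change -0.30, SE 0.25, limma's adjusted p = 0.594). Hoxc6, a thoracic gene, had 218, 215 and 195 in the libraries labelled Shox2-/- and 217, 228 and 162 in those labelled wild type (log2 change 0.061, SE 0.18, limma's adjusted p = 0.9). Library 3 labelled wild type was lowest for both. Hoxc8, a gene of the lower thorax, had 144, 223 and 182 in the libraries labelled Shox2-/- and 168, 173 and 120.1 in those labelled wild type (log2 change 0.25, SE 0.24, limma's adjusted p = 0.658). Hoxc9 had 215, 131 and 161 in the libraries labelled Shox2-/- and 149, 155 and 115 in those labelled wild type (log2 change 0.26, SE 0.24, limma's adjusted p = 0.647). The groups overlapped for both. Hoxc10, expressed in hindlimb and lumbar cord, had 183, 93.8 and 111 in the libraries labelled Shox2-/- and 103, 117 and 112 in those labelled wild type (log2 change 0.17, SE 0.27, limma's adjusted p = 0.809). Hoxc11 had 176, 122 and 124 in the libraries labelled Shox2-/- and 129, 149 and 116 in those labelled wild type (log2 change 0.086, SE 0.22, limma's adjusted p = 0.879). Library 1 labelled Shox2-/- was the highest of all 6 in Hoxc9, Hoxc10 and Hoxc11. Hoxc12 had 8.65, 0 and 5.93 in the libraries labelled Shox2-/- and 8.30, 5.21 and 1.57 in those labelled wild type. Hoxc13, a hair and nail gene, had 15.6, 4.47 and 5.18 in the libraries labelled Shox2-/- and 3.32, 4.56 and 7.85 in those labelled wild type. These 2 genes were too low to test.

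Anterior and posterior paralogues differed in summed level, and both had log2 changes of either sign. Of 7 tested anterior genes 3 had positive and 4 negative log2 changes (median -0.17), of 15 central genes 5 and 10 (median -0.20), and of 13 posterior genes 7 and 6 (median 0.071). The anterior median was 0.20 without library 1 labelled Shox2-/-. Without that library the posterior median was -0.12; it was -0.10 with sample quality weights and -0.068 over groups 10 to 13. By cluster the medians were -0.11 in HoxA, -0.27 in HoxB, 0.086 in HoxC and 0.47 in HoxD. The HoxD median was 0.20 without library 3 labelled wild type and also without library 1 labelled Shox2-/-; the HoxA median was 0.37 without library 2 labelled Shox2-/-. With sample quality weights the HoxD median was 0.09 and that of HoxC -0.10, and without library 1 labelled Shox2-/- that of HoxC was -0.084. Paralogues of 1 group are set side by side, as estimates with the limits above. In group 9 the log2 changes were 0.25 for Hoxa9, -1.05 for Hoxb9, 0.26 for Hoxc9 and 0.69 for Hoxd9. In group 8 they were -0.074 for Hoxb8, 0.25 for Hoxc8 and 0.65 for Hoxd8, and in group 6 they were -1.04 for Hoxa6, -0.85 for Hoxb6 and 0.061 for Hoxc6. The sign of Hoxc6 turned with sample quality weights (-0.12), and with 1 library left out Hoxb8 ranged from -0.22 to 0.21. Hoxb9 was at -0.27 without library 3 labelled wild type. Levels also differed within a group. The Hoxd8 mean was 446 per kb in the libraries labelled Shox2-/- and 288 in those labelled wild type, while that of Hoxb8 was 4.92 in the libraries labelled Shox2-/- and 5.07 in those labelled wild type.

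Single libraries stood at the extremes in many Hox genes. Library 1 labelled Shox2-/- was the highest of all 6 in 18 of 35 tested Hox genes, among them 9 of 13 posterior ones. Library 2 labelled Shox2-/- was lowest in 13 genes, and library 3 labelled wild type was lowest in 13. As shares of the tested Hox genes these counts are 51.4, 37.1 and 37.1%. Over all 17034 tested genes, library 1 labelled Shox2-/- was highest in 25%, library 2 labelled Shox2-/- lowest in 16.9% and library 3 labelled wild type lowest in 26.6%. Deviations from each gene's mean over the 6 libraries had a median over the posterior genes of 0.50, -0.52 and -0.075 (log2) in libraries 1, 2 and 3 labelled Shox2-/- and of -0.019, 0.035 and -0.06 in those labelled wild type. Over the HoxD genes the medians were 0.53, -0.045 and -0.075 in the libraries labelled Shox2-/- and 0.033, 0.11 and -0.71 in those labelled wild type. Hoxd1, Hoxd3, Hoxd4, Hoxd8 and Hoxd9 were lowest in library 3 labelled wild type, while Hoxd11, Hoxd12 and Hoxd13 were above their means there. Cell-type marker sums also had their extremes in these libraries. Library 1 labelled Shox2-/- had the lowest sums of mesenchyme and fibroblast markers (190000), epithelial markers (4960) and endodermal markers (2230). Col3a1 alone gave 111600 of the first sum, and members of that list differed. Col1a1, Col1a2, Dcn, Lum and Postn were lowest of all 6 in that library, while Twist1, Prrx1, Pdgfra and Pdgfrb were highest. Cardiomyocyte sums were lowest in library 3 labelled wild type (11200) and library 1 labelled Shox2-/- (14400), against 26300 to 37000 in the other libraries. Leukocyte markers summed to 215, 3830 and 396 in libraries 1, 2 and 3 labelled Shox2-/- and to 760, 729 and 3620 in those labelled wild type. Library 3 labelled wild type had the highest mesenchyme and fibroblast sum (603000), the lowest erythroid marker sum, 258 against 3020 to 16300 in the other 5, and the lowest endothelial sum, 3930 against 8590 to 15000. It also had the highest sums of neural markers (6420 against 2950 to 4490), paraxial mesoderm markers (426 against 129 to 292) and pluripotent stem cell markers (1400 against 666 to 907). Its neural crest sum was the lowest (5190). The part of these cells in the Hox values was not tested.

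**Figure D5:**
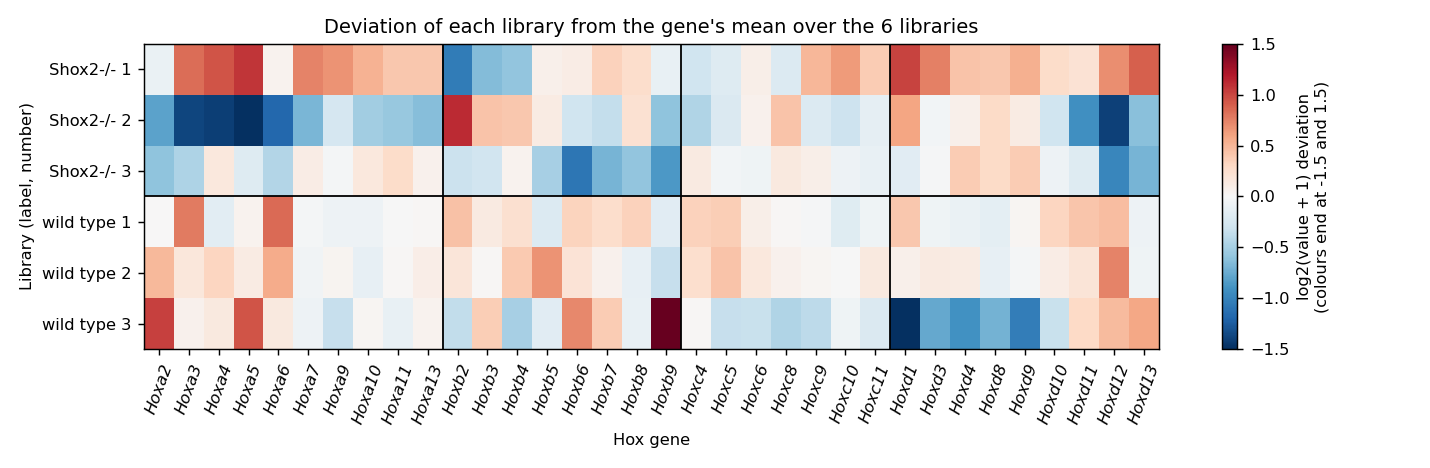
Deviation of each library's log2(value + 1) from the gene's mean over all 6 libraries, for the named and tested Hox genes in columns (HoxA to HoxD, anterior to posterior, black lines between clusters) and libraries in rows (labelled Shox2-/- above labelled wild type). Library 1 labelled Shox2-/- is red and library 2 blue over most of HoxA, while library 3 labelled wild type is blue from Hoxd1 to Hoxd9; colours end at -1.5 and 1.5.

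Of the 33 other listed genes inside the clusters, 31 of them noncoding, 15 entered the test. Of these 5 had positive and 10 negative log2 changes, and 0 were called, or reached an unadjusted p under 0.05. Hoxaas2 starts between Hoxa2 and Hoxa3 on the opposite strand and shares exon bases with Hoxa3. It had 38.1, 12.5 and 21.5 in the libraries labelled Shox2-/- and 48.1, 31.9 and 44.8 in those labelled wild type (log2 change -0.88, SE 0.43, limma's adjusted p = 0.394). Gm15050 had 34.6, 15.2 and 20.7 in the libraries labelled Shox2-/- and 33.2, 29.3 and 37.7 in those labelled wild type (log2 change -0.56, SE 0.36, limma's adjusted p = 0.494). Gm27817 had 10.4, 5.36 and 5.93 in the libraries labelled Shox2-/- and 13.3, 8.47 and 12.6 in those labelled wild type (log2 change -0.62, SE 0.4, limma's adjusted p = 0.496). Hotair, a noncoding gene between Hoxc12 and Hoxc11, had 22.5, 9.83 and 14.1 in the libraries labelled Shox2-/- and 13.3, 22.2 and 21.2 in those labelled wild type (log2 change -0.31, SE 0.4, limma's adjusted p = 0.75). No source states that strand was used in counting, so reads of a Hox gene and its antisense partner cannot be told apart where their exons overlap, which concerns 16 of the 39 genes. Of the 16 nearest protein-coding genes outside the clusters, 15 were tested, 10 with positive and 5 with negative changes. Of these 0 were called, and 4 reached an unadjusted p under 0.05 from limma, against 14.2% of all tested genes. Ttll6, beside Hoxb13, had 3.46, 3.58 and 8.15 in the libraries labelled Shox2-/- and 21.6, 16.3 and 12.6 in those labelled wild type (log2 change -1.61, SE 0.44, limma's adjusted p = 0.25). Calcoco2, the next gene, had 6.92, 15.2 and 12.6 in the libraries labelled Shox2-/- and 31.5, 21.5 and 58.1 in those labelled wild type (log2 change -1.54, SE 0.46, limma's adjusted p = 0.265). Both were lower in every library labelled Shox2-/-, as were 10.8% of all tested genes. Snx10, Smug1, Mtx2 and Cbx5, also nearest genes outside the clusters, were higher in every one, as were 12.8% of all tested genes. Cbx5, which encodes the heterochromatin protein HP1 alpha and lies beyond Hoxc4, had 32719.8, 31143 and 27526 in the libraries labelled Shox2-/- and 24172, 25383 and 23083 in those labelled wild type (log2 change 0.33, SE 0.12, limma's adjusted p = 0.301).

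The clusters also hold miRNA genes, printed here because their families repeat between clusters as the Hox genes do; capitals mark the seed, bases 2 to 8 (RefSeq, GRCm38.p6).
miR-10b-5p: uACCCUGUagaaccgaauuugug
miR-10a-5p: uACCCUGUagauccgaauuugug
miR-196b-5p: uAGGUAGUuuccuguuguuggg
miR-196a-5p: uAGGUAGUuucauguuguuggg

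The miR-10 pair, from HoxD and HoxB, shares the seed ACCCUGU, and the miR-196 pair, from HoxA, HoxB and HoxC, shares AGGUAGU; miR-196 is known to target Hoxb8. The libraries were not made for small RNA, so counts at these genes come from longer transcripts and say nothing of the mature miRNA. Mir10b, inside the Hoxd4 gene, had 8.65, 18.8 and 12.6 in the libraries labelled Shox2-/- and 6.64, 6.52 and 1.57 in those labelled wild type. It was too low for the test. Its groups did not overlap, as was so for 12.8% of all tested genes in this direction. Mir10a, beside Hoxb4, had 0, 0.89 and 0 in the libraries labelled Shox2-/- and 0, 0.65 and 0.79 in those labelled wild type.

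Genes that act with or upstream of Hox were measured as lists, and 0 genes of any list passed an adjusted p of 0.05. Apart from Cdx1, the genes named are those of lowest p in each list, a choice that favours groups without overlap. Over all tested genes, 12.8% were higher and 10.8% lower in every library labelled Shox2-/-. Of 9 TALE homeodomain cofactors, which bind DNA together with Hox proteins, 4 had positive and 5 negative log2 changes. Meis1 had 4657, 3149.8 and 3932 in the libraries labelled Shox2-/- and 5359, 5395 and 5816 in those labelled wild type. Every library labelled Shox2-/- was below those labelled wild type (log2 change -0.51, SE 0.15, limma's adjusted p = 0.255). Pbx2 had 3910.0, 3285 and 3689 in the libraries labelled Shox2-/- and 3110.3, 3251 and 2393 in those labelled wild type (log2 change 0.32, SE 0.14, limma's adjusted p = 0.359). Meis2 had 8339, 5857 and 8211 in the libraries labelled Shox2-/- and 5882, 5829 and 6421 in those labelled wild type (log2 change 0.29, SE 0.15, limma's adjusted p = 0.426). Of the 3 caudal factors, which activate central and posterior Hox genes in the tail bud, Cdx2 alone was tested, with 498, 442 and 323 in the libraries labelled Shox2-/- and 372, 397 and 62.8 in those labelled wild type. Its low value was in library 3 labelled wild type, the library in which Hoxd1, Hoxd3, Hoxd4, Hoxd8 and Hoxd9 were lowest (log2 change 0.97, SE 0.67, limma's adjusted p = 0.524). That library was lowest in 26.6% of all tested genes, and a link between Cdx2 and these Hox genes was not tested. Cdx1 had 10.4, 4.47 and 11.8 in the libraries labelled Shox2-/- and 0, 1.30 and 3.14 in those labelled wild type, too low to test. Of 14 tested retinoic acid pathway genes 5 had positive and 9 negative changes. Cyp26a1, which degrades retinoic acid, had 216, 296 and 217 in the libraries labelled Shox2-/- and 101, 84.7 and 188 in those labelled wild type. All libraries labelled Shox2-/- were above those labelled wild type (log2 change 1.03, SE 0.32, limma's adjusted p = 0.274). Rdh10, which makes its precursor, had 2142, 1375 and 2137 in the libraries labelled Shox2-/- and 2247, 2325 and 2665 in those labelled wild type and lay the other way, again without overlap (log2 change -0.38, SE 0.19, limma's adjusted p = 0.397). The carrier Crabp2 had 1129.8, 257 and 490.3 in the libraries labelled Shox2-/- and 216, 222 and 446 in those labelled wild type (log2 change 0.91, SE 0.53, limma's adjusted p = 0.464). Of 4 tested axial and hindbrain inducers 1 had a positive change. Egr2 had 145, 251 and 157 in the libraries labelled Shox2-/- and 279, 258 and 312 in those labelled wild type (log2 change -0.65, SE 0.23, limma's adjusted p = 0.303). The tail bud gene T (brachyury) had 62.3, 32.2 and 25.9 in the libraries labelled Shox2-/- and 91.3, 56.05 and 353 in those labelled wild type (log2 change -1.68, SE 0.67, limma's adjusted p = 0.334). Gdf11 had 965, 442 and 684 in the libraries labelled Shox2-/- and 427, 521 and 564 in those labelled wild type (log2 change 0.41, SE 0.28, limma's adjusted p = 0.521). Egr2 was lower in every library labelled Shox2-/-, whereas T stood apart in library 3 labelled wild type.

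No chromatin regulator of the clusters was called. The Polycomb, MLL and trithorax genes named with values are those of lowest p in each list, a choice that favours groups without overlap. Over all tested genes, 12.8% were higher and 10.8% lower in every library labelled Shox2-/-. Of 10 members of Polycomb repressive complex 2, which deposits the repressive H3K27 methyl mark, 6 had positive and 4 negative log2 changes. Rbbp4 had 8578, 7595 and 7482 in the libraries labelled Shox2-/- and 6601, 6713 and 6573 in those labelled wild type (log2 change 0.25, SE 0.1, limma's adjusted p = 0.326). Phf19 had 91.7, 99.2 and 209 in the libraries labelled Shox2-/- and 179, 209 and 320.3 in those labelled wild type (log2 change -0.88, SE 0.37, limma's adjusted p = 0.344). Ezh2, its catalytic subunit, had 2824, 2232 and 1909 in the libraries labelled Shox2-/- and 1832, 1841 and 1784 in those labelled wild type. Rbbp4 and Ezh2 were higher in every library labelled Shox2-/- (Ezh2 log2 change 0.33, SE 0.15, limma's adjusted p = 0.364). Of 11 members of Polycomb repressive complex 1, which binds that mark, 8 had positive and 3 negative changes. Cbx7, a reader subunit, had 168, 179.7 and 253 in the libraries labelled Shox2-/- and 417, 423 and 448 in those labelled wild type. Its groups were far apart, and it was lower in every library labelled Shox2-/- (log2 change -1.12, SE 0.19, limma's adjusted p = 0.17). Phc2 had 1960.2, 1508 and 1685 in the libraries labelled Shox2-/- and 1480.5, 1412 and 964 in those labelled wild type (log2 change 0.43, SE 0.19, limma's adjusted p = 0.355). Cbx2, another reader, had 1888, 1466 and 1322 in the libraries labelled Shox2-/- and 1299.6, 1259 and 1047 in those labelled wild type (log2 change 0.36, SE 0.16, limma's adjusted p = 0.359). Both lay higher in every library labelled Shox2-/-. Of 7 tested MLL and trithorax subunits, which counter Polycomb, 5 had positive and 2 negative changes. Dpy30 had 1016, 861 and 736 in the libraries labelled Shox2-/- and 636, 640.0 and 697 in those labelled wild type (log2 change 0.39, SE 0.14, limma's adjusted p = 0.303). Wdr5 had 2753, 2196 and 2363 in the libraries labelled Shox2-/- and 2119, 2065 and 1874 in those labelled wild type (log2 change 0.27, SE 0.12, limma's adjusted p = 0.359). Both were higher in every library labelled Shox2-/-. Psip1 had 4322, 3396 and 3468 in the libraries labelled Shox2-/- and 2763, 3054 and 3845 in those labelled wild type (log2 change 0.22, SE 0.16, limma's adjusted p = 0.544). The H3K27 demethylases Kdm6a and Kdm6b had log2 changes of 0.058 and 0.035. Of the even-skipped and ParaHox genes, Evx1 beside Hoxa13 had 111, 105 and 99.2 in the libraries labelled Shox2-/- and 106, 102 and 95.8 in those labelled wild type (log2 change 0.051, SE 0.18, limma's adjusted p = 0.911). Evx2 beside Hoxd13 had 32.9, 11.6 and 1.48 in the libraries labelled Shox2-/- and 9.96, 9.12 and 31.4 in those labelled wild type (log2 change -0.59, SE 0.96, limma's adjusted p = 0.809).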

How the data were processed

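RNA sequencing (Illumina HiSeq 2000, per the labels' protocols) covered 6 libraries. The submitters' processing notes name BWA, HTSeq, CASAVA 1.8.2 and DESeq2 1.14.0 beside build mm10, without roles. The deposited values are read counts that the authors divided by 1 size factor per library: division by each library's step gave whole reads for 100% of values (tolerance 0.1 reads). The size-factor scale is called normalized counts; the planned count tests were not run.

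The 17034 genes that reached a value of 10 in 3 or more libraries were tested with limma 3.58.1 (R 4.3.3) on log2(value + 1), as a two-sided moderated test with an intensity trend, and p-values were adjusted over all of them by the Benjamini-Hochberg method. The pseudocount understates changes of low genes. Positions, lengths and overlaps came from GENCODE M21 (GRCm38), which held 30484 of the 30631 IDs, and levels per kb use merged exons. How reads shared between genes were counted is not given in the sources used here. The pseudocount, filter, scaling, weights, libraries left out and a term for titles with Diff9 were varied. Members and lists were chosen with earlier results of these data known. The Hox genes are named with their values, except 1 that is not reported here and enters only sums and counts; of each other list, up to 3 with the lowest p, and further genes (Hotair, Haglr, Hoxd3os1, Hoxa11os, miRNA genes, Cdx1, demethylases) were named after their values were seen.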

Additional observations from a re-analysis of the deposited data

How the results depend on the processing

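No Hox gene was called under any of the 16 alternatives of the fit, in which the lowest adjusted p of a Hox gene was 0.0669 (Hoxd8, limma voom with sample quality weights). The planned edgeR and DESeq2 fits were not run; the recovered reads served voom, the TMM scaling and the depths. No paired analysis was possible because the titles give no replicate numbers that the groups share. The number of genes called in the whole table was 0, but 2 without a filter, 303 with sample quality weights, and 0 to 51 with 1 library left out (51 without library 2 labelled Shox2-/-). The 5 Hox genes at an unadjusted p under 0.05 became 2 with a mean value of at least 50, 8 with voom without weights (chosen after seeing the data), and 3 to 11 with 1 library left out. The anterior median of -0.17 was 0.20 with a mean of at least 50, 0.96 over genes without exon overlap (chosen after seeing the data, fewer genes), and -0.25 to 0.20 with 1 library left out; that of HoxA, -0.11, ranged from -0.34 to 0.37. Of 35 tested genes, 20 kept their sign in every alternative that tested them (15 or 16 each; 9 of the 35 were too low for the fit with a mean of at least 50). Hoxb4 turned to 0.044 with libraries 1 and 2 labelled wild type averaged and 0.069 with a Diff9 term, Hoxd10 to 0.021 and 0.013 under the same settings, and Hoxc6 to -0.12 and Hoxc11 to -0.10 with sample quality weights; the cause was not tested. With 1 library left out, log2 changes ranged from -0.74 to 0.44 for Hoxa4, -1.47 to 0.066 for Hoxa5, -0.23 to 0.48 for Hoxa7, -0.019 to 0.44 for Hoxa9, -0.12 to 0.40 for Hoxa10, -0.11 to 0.37 for Hoxa11, -0.34 to 0.18 for Hoxa13, -0.76 to 0.32 for Hoxb2, -0.36 to 0.18 for Hoxb4, -0.35 to 0.09 for Hoxb5, -0.22 to 0.21 for Hoxb8, -0.092 to 0.15 for Hoxc6, -0.11 to 0.37 for Hoxc10, -0.084 to 0.18 for Hoxc11 and -0.25 to 0.075 for Hoxd10. Among genes that kept their sign, values also moved by over 1.5 times: -1.25 (without library 1 labelled Shox2-/-) to -0.15 (without 2) for Hoxa3, -0.64 (without 2) to -0.11 (without 1) for Hoxb3, -0.76 (without 1) to -0.24 (without 3) for Hoxb7, -1.75 (without 1) to -0.70 (without 2) for Hoxd12 and -0.81 (without 1) to -0.012 (without 3) for Hoxd13, with -0.52 (without 3) for Hoxb6 and -0.29 (without 2) for Hoxd11. Leaving out wild type library 3 gave -0.27 for Hoxb9, 0.08 for Hoxc8 and -0.55 for Hoxc5 (-0.16 without 2), and Hoxc9 ranged from 0.069 (without library 1 labelled Shox2-/-) to 0.42 (without 2). The posterior median (0.071) ranged from -0.12 to 0.18, that of HoxC (0.086) from -0.084 to 0.18 and that of HoxD (0.47) from 0.20 to 0.65; with sample quality weights they were -0.10, -0.10 and 0.09. Genes under about 20 normalized counts rest on few reads in library 1 of each label.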
